A study of Mus musculus with 24 samples.

Results

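Mitochondrial ribosomal proteins are the protein part of the ribosome that works inside mitochondria. Their genes lie in the nucleus, the proteins are made in the cytosol and imported, and the assembled ribosome translates the few proteins encoded by mitochondrial DNA, all of them subunits of the oxidative phosphorylation complexes. The large subunit, whose genes are named Mrpl, joins the amino acids, and the small subunit, whose genes are named Mrps, reads the messenger RNA. The liver is rich in mitochondria and depends on them for fatty acid oxidation, ketone body formation, urea synthesis and gluconeogenesis.

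The genes were chosen by symbol: every probe set with 1 gene symbol in the platform table that starts with Mrpl or Mrps followed by a digit, 156 of 45101 probe sets on the array. These stand for 76 genes (47 Mrpl and 29 Mrps) of the 18194 genes with a symbol of their own, and where a gene had several probe sets, the brightest on average over the 24 arrays stood for it. All 76 passed the filter on dim probe sets, in which 13114 genes were kept and tested. Mrpl30 and Mrpl53 were not among the genes so named.

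RNA was measured in the liver of 24 male BALB/c mice, with 1 Affymetrix array per mouse. The mice were 6 weeks old when obtained and were kept for 1 week before the experiment. Control mice were not injected and ate the purified diet AIN93G. The other 3 groups received 185 mg/kg streptozotocin (STZ), a toxin of the insulin-producing beta cells, into the abdominal cavity. Of the injected mice, those with a non-fasting blood glucose of 230 to 400 mg/dL after 1 week went on to 14 days of AIN93G alone (the STZ group) or of AIN93G with 0.1% or 0.5% quercetin, a flavonol of many food plants. Each of the 4 groups held 6 mice. Cages held 3 mice, and no label ties a mouse to a cage, so that effects of cage and group cannot be told apart. The control mice differ from the STZ mice by the injection and by the choice on glucose together.

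The deposited intensities averaged 61 to 102 per array, and their scaling is not given in the sources used here. They were quantile normalized and taken as log2(intensity + 16), so that a difference of 1 is about a doubling for a bright probe set and more than that for a dim one. A gene is called higher or lower where its adjusted p by limma (Benjamini-Hochberg over all genes tested) is under 0.05. The 6 hepatocyte markers measured were all over the filter, and none was called between STZ and control mice. Of the 8 macrophage and Kupffer cell markers tested, 4 were higher in STZ mice (median difference 0.42), and the summed deposited intensity of the list's 9 measured genes ranged from 812 to 1499 in control and from 1251 to 2160 in STZ mice. Of the 4 B and plasma cell markers, 2 were lower, with sums of 128 to 246.5 in control and 35.9 to 98.9 in STZ mice. Lyve1 of the 5 endothelial markers and Dcn of the 6 stellate cell markers were higher, and Cela1 of the 2 exocrine pancreas markers tested was lower. The sums ran from 409 to 696 in control and from 416.5 to 633 in STZ mice for endothelial markers, from 602 to 1114 and from 852.5 to 1218 for stellate cell markers, and from 426 to 723 and from 170 to 257 for the exocrine pancreas markers. None of the 2 T and NK cell and the 3 bile duct markers tested was called in STZ mice. Marco, Cd79a, Cd3e, Nkg7, Ncr1, Krt7 and Cpa1 lay under the filter. The Gapdh probe sets at the 3′ and 5′ end of that transcript, a measure of RNA integrity and labelling, differed by −0.04 ± 0.17 (3′ minus 5′, log2, SD, n = 6) in control mice, −0.34 ± 0.10 in STZ mice, −0.32 ± 0.15 with 0.1% quercetin and −0.21 ± 0.17 with 0.5% quercetin. The same difference for actin ranged from 0.97 to 1.56 in control and from 0.89 to 1.51 in STZ mice. It ranged from 1.04 to 1.37 with 0.1% and from 1.05 to 1.29 with 0.5% quercetin. Of these marker and probe set differences, only that of Gapdh was put into a fit, as a covariate. It partly followed the groups, from −0.18 to 0.28 in control and from −0.46 to −0.17 in STZ mice. Such a fit thus cannot tell its part in the results below from that of the group, and the part of the others was not tested. In whole liver, fewer cells of a type and less RNA per cell cannot be told apart.

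Nuclear genes for mitochondrial proteins are known to be served by the factors NRF1, GABP (of the ETS family) and YY1, and many of their promoters lie back to back with a neighbouring gene. The promoters of 5 genes described below are printed, a choice among the genes lower in STZ or quercetin-fed mice than in control mice. Mrpl22 was added because its window holds an NRF1 and an ETS motif, as does that of Mrpl17, which is not printed. Each is the run of 140 bases directly before the RefSeq start (GRCm38.p6), written 5′ to 3′ on the gene's strand, with matches to the motifs in capitals.
Mrpl12 (chr11:120484497-120484636, plus strand): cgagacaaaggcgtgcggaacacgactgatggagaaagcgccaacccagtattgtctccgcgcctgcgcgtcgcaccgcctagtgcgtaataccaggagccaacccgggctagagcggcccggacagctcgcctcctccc
Mrpl2 (chr17:46646081-46646220, plus strand): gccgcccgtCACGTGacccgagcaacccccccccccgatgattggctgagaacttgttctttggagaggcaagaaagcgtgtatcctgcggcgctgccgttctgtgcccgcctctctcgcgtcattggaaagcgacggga
Mrps22 (chr9:98601680-98601819, minus strand): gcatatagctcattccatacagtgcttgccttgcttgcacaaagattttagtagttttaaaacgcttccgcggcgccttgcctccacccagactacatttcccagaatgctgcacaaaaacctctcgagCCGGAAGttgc
Mrps18a (chr17:46110864-46111003, plus strand): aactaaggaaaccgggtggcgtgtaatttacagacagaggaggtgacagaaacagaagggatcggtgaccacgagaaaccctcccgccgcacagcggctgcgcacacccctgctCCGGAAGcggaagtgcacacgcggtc
Mrpl22 (chr11:58171524-58171663, plus strand): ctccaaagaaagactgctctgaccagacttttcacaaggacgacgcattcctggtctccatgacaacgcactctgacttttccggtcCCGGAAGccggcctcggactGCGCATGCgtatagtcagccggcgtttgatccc

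The capitals mark an E-box (CACGTG) in Mrpl2, an ETS motif (CCGGAAG) in Mrps22, Mrps18a and Mrpl22, and an NRF1 motif (GCGCATGC) in Mrpl22. No motif searched was found in the printed bases of Mrpl12. Mrpl19, Mrpl4, Mrpl20 and Mrps7, which were also called lower, are named only.

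The motifs were counted in windows of 300 bases (250 before the start and 50 after it) on both strands, and a factor's binding was not measured. RefSeq windows were found for 67 of the 76 genes. The ETS motif stood in 24 of these 67 windows (35.8%), against 11.9% of 17492 protein-coding genes and 39.1% of the 64 cytosolic ribosomal protein genes with a window. YY1's motif AAGATGG stood in 13 (19.4%), against 6.37% of protein-coding and 14.1% of cytosolic ribosomal protein genes. NRF1's motif stood in 8 (11.9%), against 3.61% and 3.12% of these sets. The E-box stood in 5 (7.46%), against 7.90% and 7.81%. Of all 27025 genes in the table, 9.12% held the ETS motif, 6.48% the YY1 motif, 2.80% the NRF1 motif and 7.24% the E-box. The median GC content was 58.3% in the windows of the mitochondrial ribosomal protein genes and 56.3% in those of protein-coding genes. At least 1 of the NRF1, ETS and YY1 motifs was found in 36 windows. Of the 8 windows with an NRF1 motif 7 were those of Mrpl genes, which make up 41 of the 67 windows.

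Another gene started on the opposite strand within 1000 bases, head to head, for 25 of the 67 genes (37.3%), against 13.2% of protein-coding genes and 18.8% of cytosolic ribosomal protein genes. Mrpl46 and Mrps11 face each other with 42 bases between their starts, which joins a large and a small subunit gene. The 6 pairs that follow were picked from the 25 after the list was seen. Mrps12 lies 147 bases from Sars2, the mitochondrial seryl-tRNA synthetase, and Mrpl43 lies 116 bases from Twnk, the helicase of mitochondrial DNA. Mrpl47 is paired with Ndufb5, a subunit of complex I, at 308 bases, and Mrpl49 with Fau, a source of a cytosolic ribosomal protein, at 192 bases. Mrpl2 is paired with Klc4 at 141 bases and Mrps7 with Gga3 at 224 bases.

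**Figure D1:**
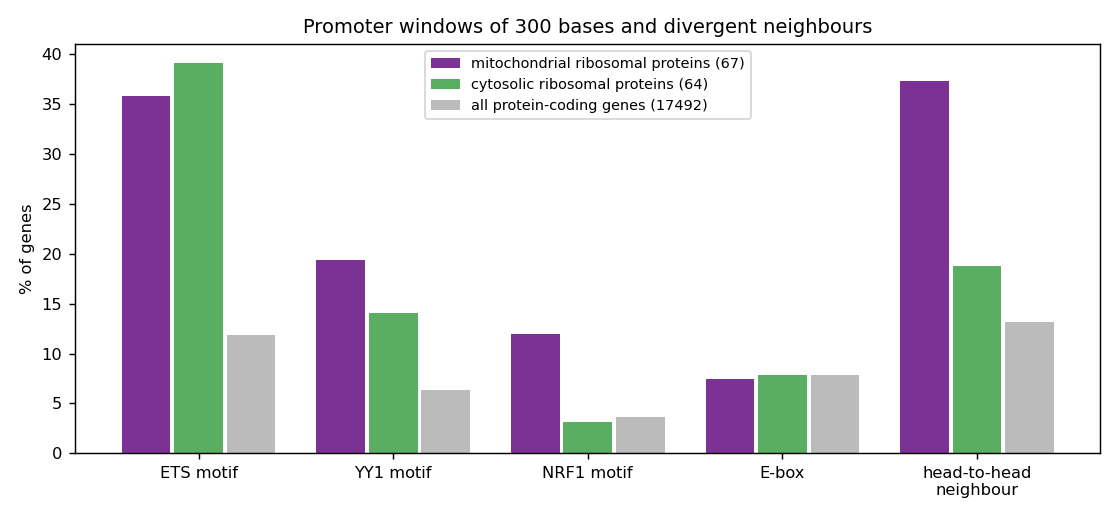
Share of genes (%, vertical axis) whose RefSeq promoter window of 300 bases holds each motif, and share with a head-to-head neighbour within 1000 bases, for mitochondrial ribosomal protein genes, cytosolic ribosomal protein genes and all protein-coding genes. The ETS motif stood in 35.8% of the 67 mitochondrial ribosomal protein windows, beside 39.1% of cytosolic ribosomal protein windows, and a head-to-head neighbour was found for 37.3% of them.

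The comparison of STZ with control mice asks what the injected, hyperglycaemic animals differ in. Most differences of the mitochondrial ribosomal protein genes lay slightly below 0 in STZ livers, 62 of 76 (81.6%), against 55.3% of the 13114 genes tested, and the median was −0.12 against −0.02 (log2). The shifts were small, from −0.41 in Mrpl12 to 0.18 in Mrps34. Only Mrpl12, Mrpl2 and Mrpl19, all of the large subunit and all with a bacterial counterpart, passed the threshold of limma, and none was higher. These 3 are 3.95% of the 76, against a background of 3.72% of all genes called in this comparison (2.03% higher and 1.69% lower), so the share of called genes was near that of all genes. At an unadjusted p under 0.05, 26 of the 76 (34.2%) were past, all of them lower, against 16.7% of all genes in either direction.

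The direction held relative to the other genes under every scaling tried, and its size did not. On the values as deposited the median of all genes was 0.06 and that of the 76 genes lay at −0.01, with 42 below 0 and 54 below the median of all genes. With arrays scaled to one median, the medians were −0.03 and −0.15. With the Gapdh difference as a covariate the median of the 76 genes was −0.06, and 56 lay below 0. The calls over all genes split into 266 higher and 222 lower here, 120 and 41 on the values as deposited, and 170 and 281 with median scaling. With the Gapdh covariate 4 genes were called higher and 2 lower.

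**Figure D2:**
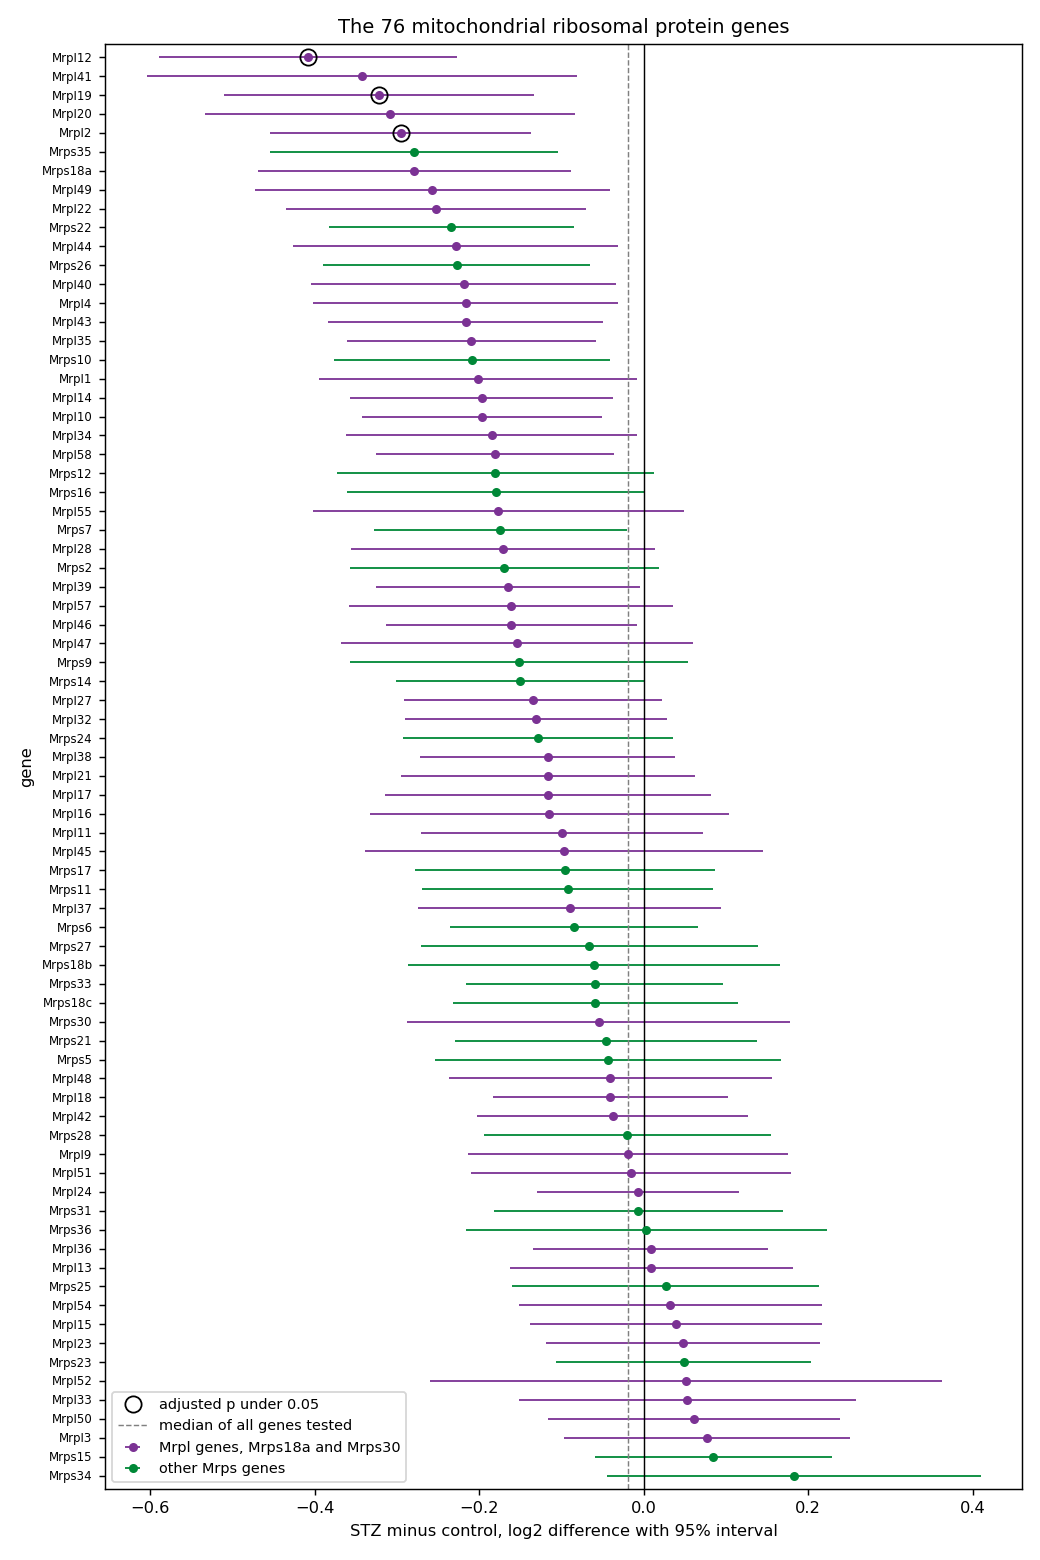
STZ minus control difference of each of the 76 genes (log2, horizontal axis) with its 95% interval from limma, in order of size. The 3 ringed genes, Mrpl12, Mrpl19 and Mrpl2, have an adjusted p under 0.05, and 62 of the 76 points lie left of 0.

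Mrpl12 forms the flexible stalk of the large subunit that receives translation factors, and it is also known as a partner of the mitochondrial RNA polymerase. Its level in control mice ranged from 9.62 to 9.96 with a median of 9.75 (log2 intensity), and in STZ mice from 9.22 to 9.58 with a median of 9.28. Every STZ mouse lay below every control mouse. The means were 9.76 ± 0.14 and 9.36 ± 0.15 (SD, n = 6 each), a difference of −0.41 with an SE of 0.09, or 1.33-fold lower (limma adjusted p = 0.00862). Mice given 0.1% quercetin ranged from 9.14 to 9.64 (median 9.31) and those given 0.5% from 9.15 to 9.43 (median 9.25). Both quercetin groups thus lay with the STZ mice, except for 1 mouse at 9.64 that overlapped the controls. The call was kept when any single control or STZ mouse was left out, with adjusted p from 0.00586 to 0.0285. It was lost on the values as deposited (−0.31, adjusted p = 0.483) and with the Gapdh covariate (−0.34, adjusted p = 0.355).

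Mrpl2 is the counterpart of a core bacterial protein that lies near the peptidyl transferase centre, where peptide bonds form. Its level ranged from 8.02 to 8.18 (median 8.08) in control and from 7.73 to 7.85 (median 7.82) in STZ mice, so the groups did not overlap and each was narrow. The means were 8.09 ± 0.06 and 7.80 ± 0.05 (SD, n = 6 each), and the difference was −0.30 with an SE of 0.08 (limma adjusted p = 0.0291). The quercetin groups were wider and bridged both ranges, from 7.72 to 8.17 (median 7.97) with 0.1% and from 7.83 to 8.14 (median 8.01) with 0.5%. Leaving out control replicate 3 or 5, or STZ replicate 1, 3 or 6, ended the call of Mrpl2, and the adjusted p then reached at most 0.0668. In those 5 fits Mrpl12 alone remained of the 3 genes. The call of Mrpl2 was also lost on the values as deposited (−0.19, adjusted p = 0.799), with the Gapdh covariate (−0.30, adjusted p = 0.359) and with median scaling (−0.33, adjusted p = 0.0578).

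Mrpl19 belongs to a family whose bacterial member lies at the face between the subunits. It ranged from 6.29 to 6.56 (median 6.36) in control and from 5.80 to 6.24 (median 6.12) in STZ mice, with no overlap. The difference was −0.32 with an SE of 0.09 (limma adjusted p = 0.0453). It passed in only 4 of 21 alternatives, and leaving out 1 mouse ended the call in 11 of 12 cases. Its 4 probe sets disagreed: the representative gave −0.32, the others −0.14, 0.10 and 0.17, the last of them under the filter.

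**Figure D3:**
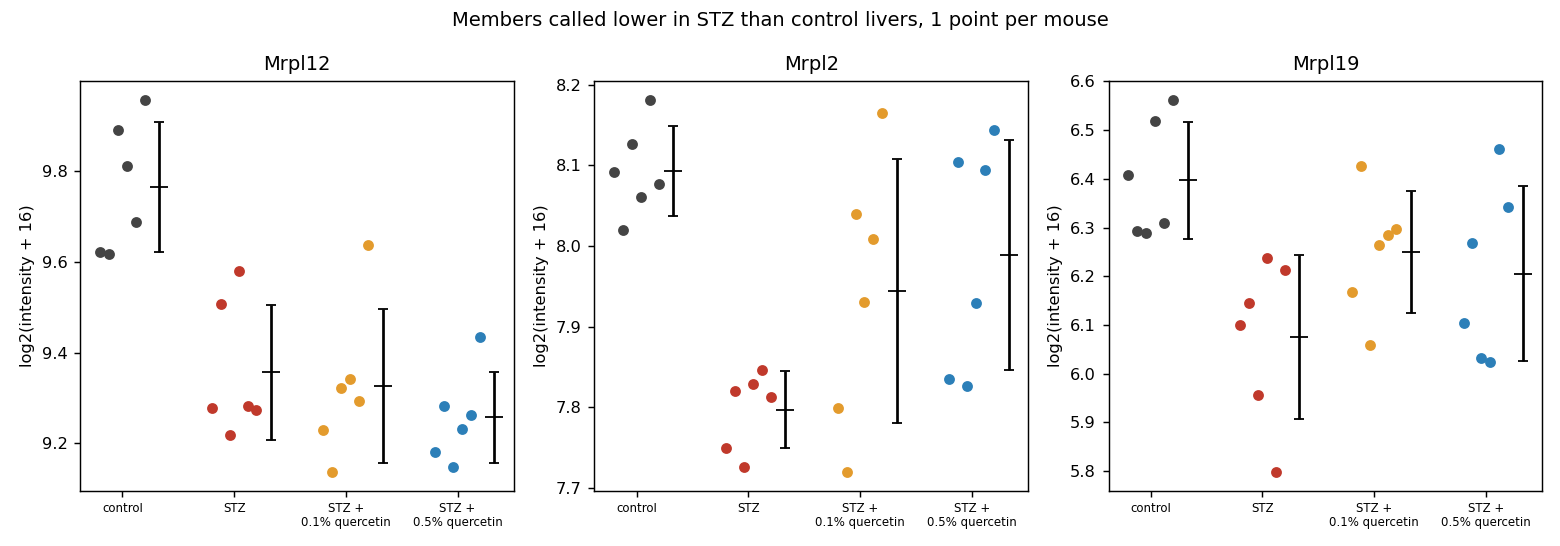
Level of Mrpl12, Mrpl2 and Mrpl19 (log2 of intensity + 16) in each of the 24 mice by group, with the mean and SD of 6 mice as the bar at the right of each group. All 6 STZ mice lie below all 6 control mice for each gene, and the quercetin groups of Mrpl12 stay near the STZ level, with medians of 9.31 and 9.25.

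In the large subunit, the 28 genes with a bacterial counterpart had a median difference of −0.13, with 22 below 0 and 3 called. The stalk base and anchor did not pass the test: Mrpl10, which holds the Mrpl12 copies, gave −0.20 (95% interval −0.34 to −0.05, adjusted p = 0.131), and Mrpl11 gave −0.10 (−0.27 to 0.07, adjusted p = 0.604). Mrpl22, whose bacterial counterpart lines the exit tunnel, ranged from 8.21 to 8.53 in control and from 8.08 to 8.19 in STZ mice. It was chosen for naming after its values were seen, and its difference of −0.25 did not pass (adjusted p = 0.117). The 19 genes listed as without a bacterial counterpart had a median of −0.12, with 16 below 0 and none called. The list used counts Mrps18a among them in spite of its bacterial relatives. Mrpl44, with an RNase III-like fold, gave −0.23 (−0.43 to −0.03, adjusted p = 0.215), and Mrpl45, which tethers the ribosome to the inner membrane, gave −0.10 (−0.34 to 0.15, adjusted p = 0.748). Mrps18a and Mrps30 carry small subunit names but sit in the large subunit. Mrps18a gave −0.28 (−0.47 to −0.09, adjusted p = 0.0931) and Mrps30 gave −0.06 (−0.29 to 0.18, adjusted p = 0.863).

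In the small subunit, the 16 genes with a bacterial counterpart had a median of −0.11, with 15 below 0 and none called. Mrps12, at the decoding centre, gave −0.18 (−0.37 to 0.01, adjusted p = 0.338), and Mrps7, in the head of the subunit, gave −0.17 (−0.33 to −0.02, adjusted p = 0.228). The 10 genes listed as without a counterpart, Mrps18b among them in the same way, had a median of −0.06, with 7 below 0 and none called. The classes of both subunits do not hold all 76 genes, and Mrps36 is in none of them. The Mrps genes nearest to the threshold were both of this kind: Mrps35 gave −0.28 (−0.45 to −0.10, adjusted p = 0.0670) and Mrps22 −0.23 (−0.38 to −0.08, adjusted p = 0.0725). Control mice ranged from 7.01 to 7.51 and STZ mice from 6.81 to 6.97 for Mrps35, without overlap. The 3 paralogues that share the Mrps18 name differed in size, with Mrps18b at −0.06 (adjusted p = 0.840) and Mrps18c at −0.06 (adjusted p = 0.794) beside the −0.28 of Mrps18a, a contrast that was not tested. Mrps36, now known as a subunit of the 2-oxoglutarate dehydrogenase complex, gave 0.003 (−0.22 to 0.22, adjusted p = 0.992).

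In 10 of the 76 genes every STZ mouse lay below every control mouse, against 2.23% of all genes: Mrpl12, Mrpl2, Mrpl19, Mrpl22, Mrpl35, Mrpl39, Mrpl43, Mrpl44, Mrps22 and Mrps35. Mrps34 had the highest difference, at 0.18 (−0.05 to 0.41, adjusted p = 0.430), and ranged from 8.41 to 8.58 in control and from 8.46 to 8.85 in STZ mice. Mrpl15 gave 0.04 by its representative and 0.39 by a probe set nearly as bright, and its others over the filter lay between −0.20 and 0.12. Mrps15 gave 0.08 by its representative and 0.39 by another probe set, and with the mean over probe sets it was called higher (0.24, limma adjusted p = 0.0260). In that setting Mrpl12 and Mrpl2 were called lower, as were 2 small subunit genes. These were Mrps22 (−0.23, limma adjusted p = 0.0454) and Mrps24 (−0.23, adjusted p = 0.0412), whose 2 probe sets gave −0.13 and −0.33. Of the 38 genes with more than 1 probe set over the filter, 21 had all of them on the same side of 0. The other 64 probe sets over the filter had a median of −0.04, with 42 below 0.

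The level of the 76 genes as a set also varied between mice. For each mouse the median over the 76 genes of the deviation from the gene's mean was taken. It ranged from 0.02 to 0.15 in control mice (0.08 ± 0.05, SD, n = 6) and from −0.06 to −0.02 in STZ mice (−0.04 ± 0.01), and these groups did not overlap. With 0.1% quercetin it ranged from −0.09 to 0.03 (−0.03 ± 0.04). With 0.5% quercetin it ranged from −0.09 to 0.08 (−0.02 ± 0.07) and fell apart: replicates 5 and 6 were at 0.08 and 0.06, within the control range, and the other 4 were between −0.09 and −0.05. Their Gapdh differences were −0.06 and 0.01, and that of replicate 1, whose median over the 76 genes was −0.07, was −0.14. All 3 lay within the control range of −0.18 to 0.28, as did 0.1% quercetin replicate 2 at −0.07, with a median over the 76 genes of −0.04. STZ replicate 4, at −0.17, lay within it too and also had a median over the 76 genes of −0.04. A link between the Gapdh difference and the level of the 76 genes was not tested over the mice. Between 39 and 67 of the 76 genes were above their own mean in a control mouse and between 26 and 35 in an STZ mouse.

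**Figure D4:**
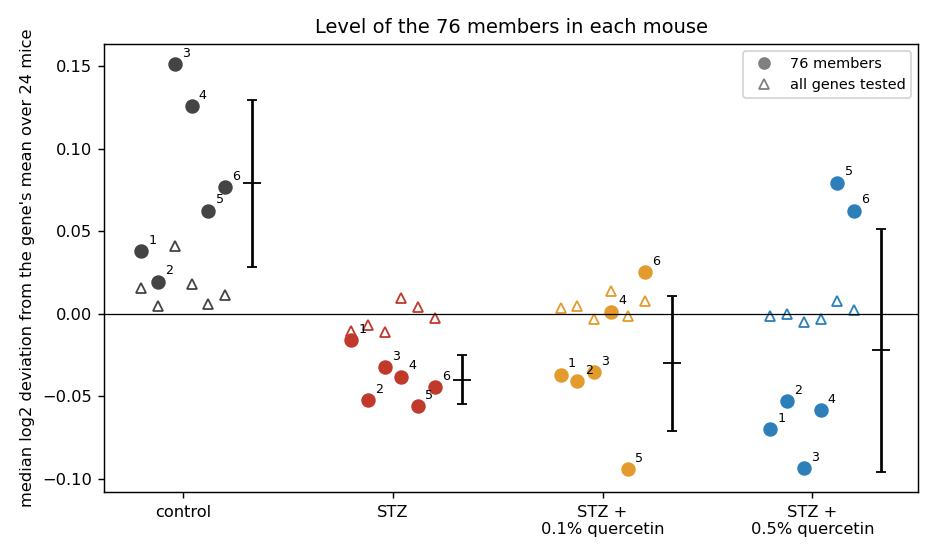
Median over the 76 genes of the log2 deviation from each gene's mean over 24 mice, 1 filled point per mouse with its replicate number, the mean and SD of 6 mice as bars, and the median over all 13114 genes as open triangles. The 6 control mice lie between 0.02 and 0.15 and the 6 STZ mice between −0.06 and −0.02, and replicates 5 and 6 with 0.5% quercetin lie at 0.08 and 0.06.

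Within groups the 76 genes varied together: the mean pairwise correlation of deviations from the group means over the 24 mice was 0.10, against 0.00 over all genes, as a description of arrays that share their labelling and scaling. Their SD within groups had a median of 0.14, from 0.06 in Mrpl24 to 0.28 in Mrpl52, against 0.19 for all genes. The dimmest of the 76 genes, Mrps27, had a mean of 5.75, while all genes tested reached down to the filter at 4.31. Neither these SDs nor the shares set against all genes were matched for brightness. The largest SDs were those of Mrpl52, Mrpl41 (0.23) and Mrpl45 (0.21).

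Both quercetin groups were compared with STZ mice to ask what the diet added in injected animals. None of the 76 genes was called in either comparison, nor was any gene on the array, with a background of 0% for both. With 0.1% quercetin the median difference was 0.01 and 42 genes lay above 0. An unadjusted p under 0.05 was found for 3 (3.95%), against 687 of all genes (5.24%). Those 3 were Mrps35 at 0.20 (0.03 to 0.38, limma adjusted p = 0.887), Mrpl14 at 0.17 (0.01 to 0.33, adjusted p = 0.925) and Mrpl37 at 0.19 (0.00 to 0.37, adjusted p = 0.936). Mrps35 ranged from 7.0 to 7.22 with 0.1% quercetin, above the 6.81 to 6.97 of the STZ mice without overlap. This was so for 1 of the 76 genes and for 15 of all 13114 genes.

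With 0.5% quercetin the median difference from STZ was 0.01 and 41 genes lay above 0. An unadjusted p under 0.05 was found for 5 (6.58%), against 985 of all genes (7.51%). The smallest p were those of Mrpl2 at 0.19 (0.03 to 0.35, limma adjusted p = 0.580), Mrpl34 at 0.20 (0.02 to 0.37, adjusted p = 0.615) and Mrps15 at −0.16 (−0.30 to −0.01, adjusted p = 0.615). The sign of this median depended on scaling: it was −0.13 on the values as deposited and −0.11 with median scaling, when the median of all genes was −0.09 and −0.07. Without replicates 5 and 6, which had the highest levels of these genes in their group, it was −0.05, a direction that the choice of mice fixes. Mrpl12 differed from its STZ level by −0.03 (−0.21 to 0.15) with 0.1% and by −0.10 (−0.28 to 0.08) with 0.5% quercetin. For Mrpl19 the differences were 0.17 (−0.01 to 0.36) and 0.13 (−0.06 to 0.32).

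Between the doses, 0.5% minus 0.1% quercetin, none of the 76 genes was called and the background was again 0%. The median was 0.01. It was −0.07 on the values as deposited and −0.09 with median scaling, when the median of all genes was −0.04 and −0.05. The smallest p were those of Mrpl4 at 0.32 (0.13 to 0.50, limma adjusted p = 0.355), Mrpl37 at −0.28 (−0.47 to −0.10, adjusted p = 0.422) and Mrps36 at 0.22 (0.00 to 0.44, adjusted p = 0.596). Mrpl4, whose counterpart lines the exit tunnel, ranged from 7.49 to 7.78 with 0.1% and from 7.69 to 8.37 with 0.5% quercetin, and the 2 groups overlapped. In all, 3 genes (3.95%) had an unadjusted p under 0.05, against 1094 of all genes (8.34%).

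The quercetin groups were also set against the control mice, in comparisons added after the data were seen, which share their 6 control mice with each other and with the STZ comparison. With 0.1% quercetin 6 of the 76 genes were lower by their representative probe sets and none was higher (7.89%), against 5.57% of all genes called (2.94% higher and 2.64% lower). They were Mrpl12, Mrpl4, Mrpl20, Mrps22, Mrps18a and Mrps7, and 63 of the 76 differences lay below 0 with a median of −0.09, against −0.01 for all genes. None of the 6 was called on the values as deposited, where their differences lay between −0.42 (Mrpl12) and −0.21 (Mrps7). None was called with the Gapdh covariate either, when they lay between −0.37 (Mrpl12) and −0.13 (Mrps7) and 4 of all 13114 genes were called.

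Mrpl12 had the largest difference, −0.44 (adjusted p = 0.00351). Mrpl4 ranged from 7.85 to 8.07 (median 8.01) in control and from 7.49 to 7.78 (median 7.65) with 0.1% quercetin, and it differed by −0.35 with an SE of 0.09 (limma adjusted p = 0.0212). Its ranges did not overlap. Mrps22 ranged from 7.64 to 7.91 in control and from 7.43 to 7.57 with 0.1% quercetin, again without overlap, and differed by −0.27 with an SE of 0.07 (adjusted p = 0.0261). Mrps18a differed by −0.34 (adjusted p = 0.0286), with 7.63 to 8.14 in control and 7.47 to 7.65 with 0.1% quercetin, which overlapped slightly. Mrps7 differed by −0.26 (adjusted p = 0.0400), from 8.26 to 8.50 in control against 8.05 to 8.25. Mrpl20, whose bacterial counterpart is needed early in assembly of the large subunit, differed by −0.36 (adjusted p = 0.0484), with 7.49 to 7.84 in control and 7.10 to 7.54 with 0.1% quercetin.

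In 6 of the 76 genes every mouse given 0.1% quercetin lay below every control mouse, against 1.83% of all genes. The count of lower genes moved with single mice: it was 2 without control replicate 2 or 3 or without 0.1% quercetin replicate 5, 3 without control replicate 6 or 0.1% quercetin replicate 6, and 1 without 0.1% quercetin replicate 3. Mrpl12 was called in each of these fits, and in all 12 omissions of 1 mouse of these 2 groups. The calls of Mrpl20 and Mrps7 were each lost in 9 of the 12, that of Mrps18a in 5, that of Mrps22 in 4 and that of Mrpl4 in 3. The call of Mrps7 was also lost with the replicate number as a block (adjusted p = 0.0743).

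With 0.5% quercetin Mrpl12 was the only one of the 76 called, against 0.13% of all genes (0.0534% higher and 0.0763% lower). It ranged from 9.15 to 9.43, all below the 9.62 to 9.96 of control mice, and differed by −0.51 with an SE of 0.09, or 1.42-fold lower (limma adjusted p = 0.0221). The other genes leaned the same way, with 65 of 76 below 0 and a median of −0.09. In Mrpl12 and Mrps26 every mouse lay below every control mouse, against 0.458% of all genes. Replicates 5 and 6 of this group were singled out for their high level of these same 76 genes, so that leaving them out lowers the group by choice and tests nothing. Without them 6 of the 76 genes were called lower (Mrpl12, Mrpl20, Mrpl22, Mrpl41, Mrps22 and Mrps7), and over all genes 234 were called higher and 199 lower, against 7 and 10 with them. The call of Mrpl12 was lost on leaving out control replicate 3 or 4 or 0.5% quercetin replicate 3 or 4, when the adjusted p reached at most 0.0897, and without 0.5% quercetin replicate 5 the count was 2. It was lost as well on the values as deposited (−0.57), with the Gapdh covariate (−0.47) and with only the 2 groups in the fit (−0.51). With median scaling 18 of the 76 genes were lower, and over all genes 649 were lower and 36 higher, with a median of −0.09.

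**Figure D5:**
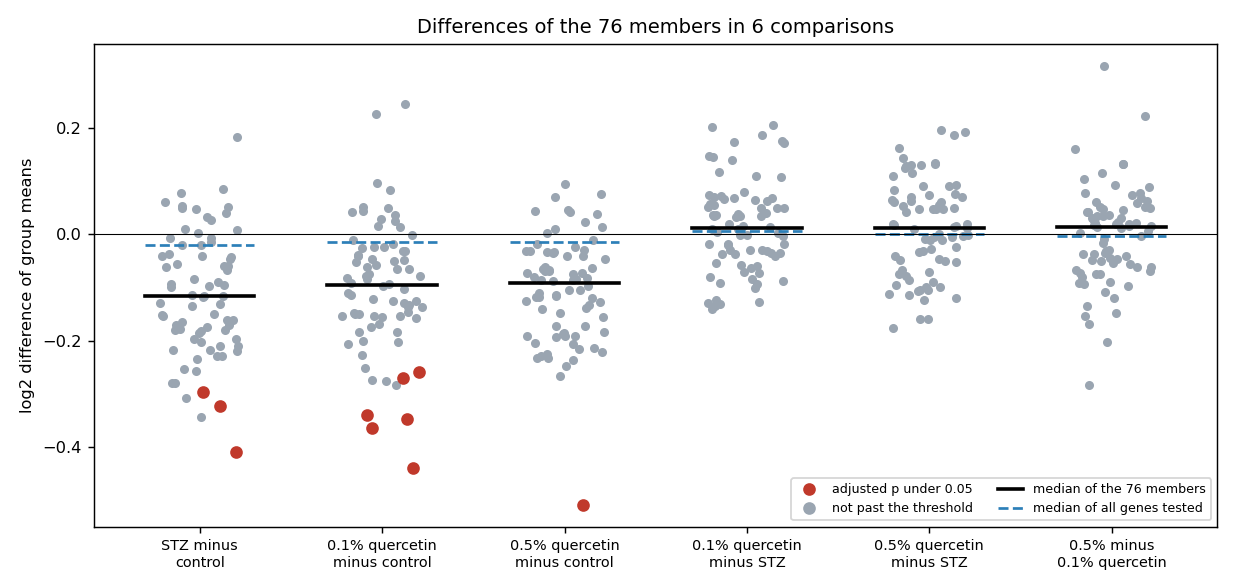
Differences of the 76 genes (log2, vertical axis) in 6 comparisons, 1 point per gene, red where the adjusted p is under 0.05, with the median of the 76 genes (black line) and of all genes tested (dashed). The medians against control mice are −0.12, −0.09 and −0.09, and the comparisons among injected mice have medians of 0.01 and no red points.

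Other genes of mitochondrial translation were read from lists. Of 4 mitochondrial ribosomal proteins under other names, none was called in STZ mice; Gadd45gip1, a large subunit protein, gave −0.31 (limma adjusted p = 0.0731) and was lower with 0.1% quercetin than in control mice (−0.35, adjusted p = 0.0299). Of 10 translation factors only Mtif3, the initiation factor that keeps the subunits apart, was lower in STZ mice (−0.38 with an SE of 0.10, adjusted p = 0.0300), and the median of the list was −0.07. Of 20 mitochondrial aminoacyl-tRNA synthetases only Fars2, which charges tRNA with phenylalanine, was lower (8.11 ± 0.11 in control and 6.94 ± 0.16 in STZ mice, SD, n = 6 each, a difference of −1.17 with an SE of 0.18, adjusted p = 0.000351). The median of that list was −0.06. With 0.1% quercetin Fars2 was at 6.93 ± 0.12 and also lower than in control mice (−1.18, adjusted p = 0.000247). With 0.5% quercetin it was at 7.38 ± 0.63, and its difference from control, −0.73, did not pass (adjusted p = 0.0691).

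None of 24 genes of ribosome assembly and rRNA modification, 15 of mitochondrial DNA upkeep and transcription, 3 of inner membrane insertion and 10 regulators was called in STZ mice, with medians of −0.10, −0.07, 0.03 and −0.05. Ppargc1a, the coactivator that drives nuclear genes for mitochondria, gave 0.27 (adjusted p = 0.198). The factors whose motifs were searched also did not pass: Nrf1 gave 0.14, Gabpa −0.07 and Yy1 −0.15 (adjusted p = 0.579, 0.664 and 0.462). The medians of STZ minus control for genes with and without a motif were not tested against each other: −0.12 with and −0.13 without the NRF1 motif, −0.12 and −0.13 for ETS, −0.13 and −0.13 for YY1, and −0.09 and −0.13 for the E-box, which 5 genes held.

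The ribosome of the cytosol is built from another set of nuclear genes. Their median in STZ mice was −0.11 over 46 genes tested, with 40 below 0, Rps27l higher (0.39, limma adjusted p = 0.0162) and Rps9 lower (−0.52, adjusted p = 0.0163). Against control mice their medians were −0.10 with 0.1% and −0.10 with 0.5% quercetin, beside −0.09 and −0.09 for the mitochondrial ones. The difference between both lists was not tested.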

How the data were processed

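Per the labels' protocols, biotin-labelled cRNA was made from the liver RNA of each mouse and hybridised to its own array. The authors deposited linear intensities, 1 per probe set and array. The summary algorithm and scaling are not given in the sources used here, and no depth or detection call was used. The intensities were quantile normalized over 24 arrays and taken as log2(intensity + 16). Names came from the platform table, in which 34958 probe sets had 1 gene symbol, 932 several and 9211 none listed. Genes were tested if their brightest probe set had a mean above the 40th percentile over all probe sets. A model with 4 group means over all arrays was fitted with limma 3.58.1 in R 4.3.3 and tested on simulated data. P-values are two-sided and Benjamini-Hochberg adjusted over 13114 genes. 4 comparisons were planned and 2 added after the data were seen. With 6 mice per group the number of arrays limits the precision.

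Genes named were those past the threshold, the 3 smallest p where none passed, the 3 largest SDs and 12 genes picked by role. Mrpl22, Mrpl15, Mrps24, Mrps34, Mrps26 and the genes of counts without overlap were named after their values were seen. The members, lists and markers were chosen with earlier results of these data known. Promoters came from RefSeq (GRCm38.p6), the first listed window per gene, matched by symbol. No protein sequence was used. Alternatives were other scalings, pseudocounts of 1 and 64, no filter, the mean over probe sets, only the groups compared, a replicate block, the Gapdh covariate, and leaving out mice. Replicate numbers are shared between groups without a stated meaning.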

Additional observations from a re-analysis of the deposited data

Results flagged for a closer look

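Of 100 groups of 6 mice checked for named genes, 3 held 1 mouse far from the other 5, and chance gives such a flag in about 1 of 20 groups. Mrpl44 in control replicate 3 was at 8.28 (log2 intensity), with the others between 8.05 and 8.12. Mrps18b with 0.5% quercetin was at 8.28 in replicate 6, with the others between 7.76 and 7.92. Mrps18c with 0.1% quercetin was at 8.72 in replicate 1, with the others between 8.45 and 8.53.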

How the results depend on the processing

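The median STZ minus control difference of the 76 genes stayed below 0 in all 21 alternatives, and was −0.0137 on the values as deposited, −0.1543 with median scaling and −0.0626 with the Gapdh covariate. The count of lower genes, 3, was 0 as deposited, 0 with the Gapdh covariate and 7 with log2(value + 64), and 1 gene was higher with the mean over probe sets. Leaving out 1 mouse gave 1 to 4 lower genes. For 0.1% quercetin minus control the count of lower genes, 6, was 0 as deposited and 0 with the Gapdh covariate, 1 to 7 without 1 mouse, and the median was −0.155 with median scaling. For 0.5% quercetin minus control the count, 1, was 0 as deposited, 0 with only these groups fitted, 0 with the Gapdh covariate, 18 with median scaling (649 of all genes lower), 6 without replicates 5 and 6 (199 of all genes lower), and 0 to 2 without 1 mouse. The median was −0.257 with median scaling. The median of 0.1% quercetin minus STZ was −0.0547 as deposited. That of 0.5% quercetin minus STZ was −0.1314 as deposited, −0.1135 with median scaling and −0.0538 without replicates 5 and 6. That of 0.5% minus 0.1% quercetin was −0.0664 as deposited and −0.0893 with median scaling. No quercetin comparison among injected mice called any of the 76 genes in any alternative.

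Among genes not called, signs of STZ minus control turned on the values as deposited for Mrpl11 (0.0094), Mrpl45 (0.0147), Mrps30 (0.0417), Mrps18b (0.0439) and Mrps18c (0.0595), where the median of all genes moved from −0.0194 to 0.0595 and none of the 5 exceeded it at 4 decimals, with the Gapdh covariate for Mrps18b (0.1335) and with median scaling for Mrps36 (−0.0294). Without 1 mouse Mrps18b ranged from −0.1356 to 0.0005 and Mrps36 from −0.0378 to 0.0488. The causes were not tested.

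Replicate numbers did not pair the mice: of 36 pairs with the same number the correlations of deviations ranged from −0.144 to 0.322 (median 0.01), 5 were over 0.1, and 5 of 24 arrays matched best with their own number. With the number as a replicate block, 3 of the 76 genes were lower in STZ mice, 5 with 0.1% and 1 with 0.5% quercetin against control.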
